A study of Mus musculus with 7 samples.

Results

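The 60S, or large, subunit of the ribosome is built from ribosomal RNA and many ribosomal proteins, and the genes for those proteins are described here in ribosome profiling of mouse epidermis. Members were taken by symbol, as genes named Rpl or Rplp followed by a digit, leaving out like-named relatives whose symbols end in l, l1 or -ps. The rule matched 48 of 13167 transcripts; Rpl29 stood on 3 of these, of which the transcript with most coding footprints was kept. That gave 46 genes of 13047 distinct symbols. The rule itself used no measured change, but it was set with earlier results of these data known.

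Ribosome profiling sequences the stretch of mRNA that a ribosome protects, so a footprint count over a coding region counts ribosomes found there. The study compared primary epidermis of mice with a transgenic knockout of Pelota (KO, gene Pelo) with that of wild-type mice (WT), and this account rests on 2 KO and 2 WT ribosome profiling libraries. Pelota is known to help release ribosomes that have stalled on an mRNA. The allele, any promoter or recombinase behind the knockout, the strain, the age and the number of animals behind a library are not given in the sources at hand. The p-values therefore reflect spread between libraries, which may be technical. The labels also list 3 RNA-seq libraries, not analysed here, so more footprints on a gene cannot be told apart from more of its mRNA, and less RNA per cell cannot be told apart from fewer cells of a type.

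Coding footprints numbered between 4221675 and 5282276 per library. Pelo, on transcript uc007ryb.2, had coding counts of 24 and 21 in KO and of 101 and 61 in WT (log2 change -1.65, SE 0.24, adjusted p = 0.000807, edgeR). The basal keratinocyte keratin gene Krt5 was abundant in every library, at 12057 and 9891 CPM (counts scaled to a library of 1000000) in KO and 6145 and 7011 in WT. Higher and lower in the lists below mean an adjusted p below 0.05 (edgeR), which held for 19.9% and 19.1% of all tested transcripts. Of 10 basal keratinocyte genes 3 were higher and 3 lower in KO (median log2 change 0.0092), and little is read from these counts beside those shares. The keratin gene Krt15 was lower, at 982 and 1272 CPM in KO and 3718 and 3708 in WT (log2 -1.72). Genes of dermal fibroblasts were abundant too: a list of 12 took 4.30% and 4.90% of the coding total in KO, against 9.01% and 13.3% in WT, with 7 of 12 lower in KO. Of 13 tested genes of the cornified layer, 11 were higher and 1 lower in KO, and the list took 2.67% and 2.38% of the coding total in KO, against 1.07% and 0.916% in WT. All 8 tested genes of wounded or stressed keratinocytes were higher (2.59% and 2.86% in KO against 0.581% and 0.684% in WT), while 7 of 8 sebocyte and 7 of 8 adipocyte genes were lower. Within these lists the cornified gene Tgm3 was unlisted in 1 WT library, the sebocyte gene Mc5r in both KO libraries and the adipocyte gene Lep in 1 KO library. In KO the large subunit genes rose, as did 7 of 9 suprabasal genes and most genes of the cornified and wound lists. Hair shaft and sheath genes were higher in 7 of 8 tested, and macrophage and Langerhans cell genes lower in 7 of 10. Of 6 tested melanocyte genes 4 were higher and 2 lower, of 6 T cell genes 3 were lower, and no endothelial gene of 5 tested passed. Most genes of the fibroblast, sebocyte and adipocyte lists fell, and the basal genes went both ways. The part of a changed cell mix in the change of the large subunit genes was not tested.

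The large subunit carries the peptidyl transferase centre, where peptide bonds form, the tunnel through which the new chain leaves, and the stalk that recruits translation factors. Its proteins are made in matched amounts, and most of their mRNAs in vertebrates begin with a terminal oligopyrimidine (TOP) tract, an uninterrupted run of C and T from the first transcribed base. The TOP tract lets mTORC1, a growth-regulating kinase complex, and the RNA-binding protein LARP1 turn translation of these mRNAs up or down together. In skin, protein synthesis is known to be lower in hair follicle stem cells than in their dividing progeny.

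Windows around annotated start sites were examined for runs of C and T because a TOP tract begins at the start. RefSeq (GRCm38.p6) starts were used for 34 of the 46 genes. Large subunit genes on a single chromosome were left out by choice, which was not done for the sets compared with them. The window read ran from 10 bases before the start to 15 bases within the transcript, 25 bases in all. The longest sense-strand run of C and T in that window reached 8 bases or more in 11 of 34 large subunit genes (32.4%), in 9 of 24 small subunit genes (37.5%) and in 9.41% of 27025 genes. Such a run could lie anywhere in the window, before or after the start, so these shares do not count TOP tracts. The runs marked below for Rpl11 and Rpl22 lie wholly before the annotated start. The windows shown are those of the pair of genes with the longest runs (Rpl27a and Rpl35), of a gene of low footprint density (Rpl7a), of a stalk protein (Rplp2), of the gene with the smallest change (Rpl38), and of a pair with short runs whose share of the subunit's footprints was lower in KO (Rpl11 and Rpl22). They lie at chr7:109519185-109519209 on the plus strand for Rpl27a, chr2:39005117-39005141 on the minus strand for Rpl35, chr2:26910797-26910821 (plus) for Rpl7a, chr7:141447641-141447665 (plus) for Rplp2, chr11:114668570-114668594 (plus) for Rpl38, chr4:136053379-136053403 (minus) for Rpl11 and chr4:152325716-152325740 (plus) for Rpl22. Each is written from 5′ to 3′ on the gene's strand, and capitals mark the longest run of C and T.
Rpl27a: cgtgagCTCCTCCCTTTTCCCTTTC
Rpl35: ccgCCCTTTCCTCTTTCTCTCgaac
Rpl7a: CTCTTCTTTCTTTCTCCagcagccg
Rplp2: cagcgTCTTCCTTTCgccgccggac
Rpl38: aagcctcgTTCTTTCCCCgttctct
Rpl11: CCataaggccacggggccggaagtc
Rpl22: CCTgggaaaagcaatagctggccga

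The runs were 19 bases in Rpl27a, 18 in Rpl35, 17 in Rpl7a, 10 in Rplp2 and in Rpl38, 3 in Rpl22 and 2 in Rpl11. An annotated start can differ from the start used in this tissue, so a short run describes the annotated window only. In the 300 bases from 250 before to 50 after the start, searched on both strands, the motif CCGGAAG (the binding motif of ETS transcription factors) occurred in 13 of 34 large subunit genes (38.2%) and in 9.12% of all genes. AAGATGGC, a YY1 motif, occurred in 2 of 34 (5.88%, against 2.88% of all genes), and TATAAA, the TATA box core, in 3 of 34 (8.82%, against 14.2%).

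Large subunit transcripts were short. Their coding regions, as tabulated, had a median of 418.5 nt (18 to 1200 nt) against 1245 nt over all transcripts of the table, their 5′ UTRs 59.5 nt against 136 nt, and their 3′ UTRs 74 nt against 898 nt. Levels between genes are compared per length, as coding footprints per kb of coding region, scaled to a library of 1000000 coding footprints, called density below. Rpl10, which joins the subunit late in its maturation, had the highest density, at 1196 and 1222 in KO and 560.2 and 571 in WT. Rpl19, on the face toward the small subunit, followed at 1092 and 1074 in KO and 436 and 409 in WT. Rpl7, a protein that eukaryotes share with bacteria, had 942 and 953 in KO and 453 and 436 in WT. In each of the 3, both KO libraries lay above both WT libraries. Rpl10 lay above the other two in every library, while Rpl19 lay above Rpl7 in both KO libraries and below it in both WT libraries.

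**Figure D1:**
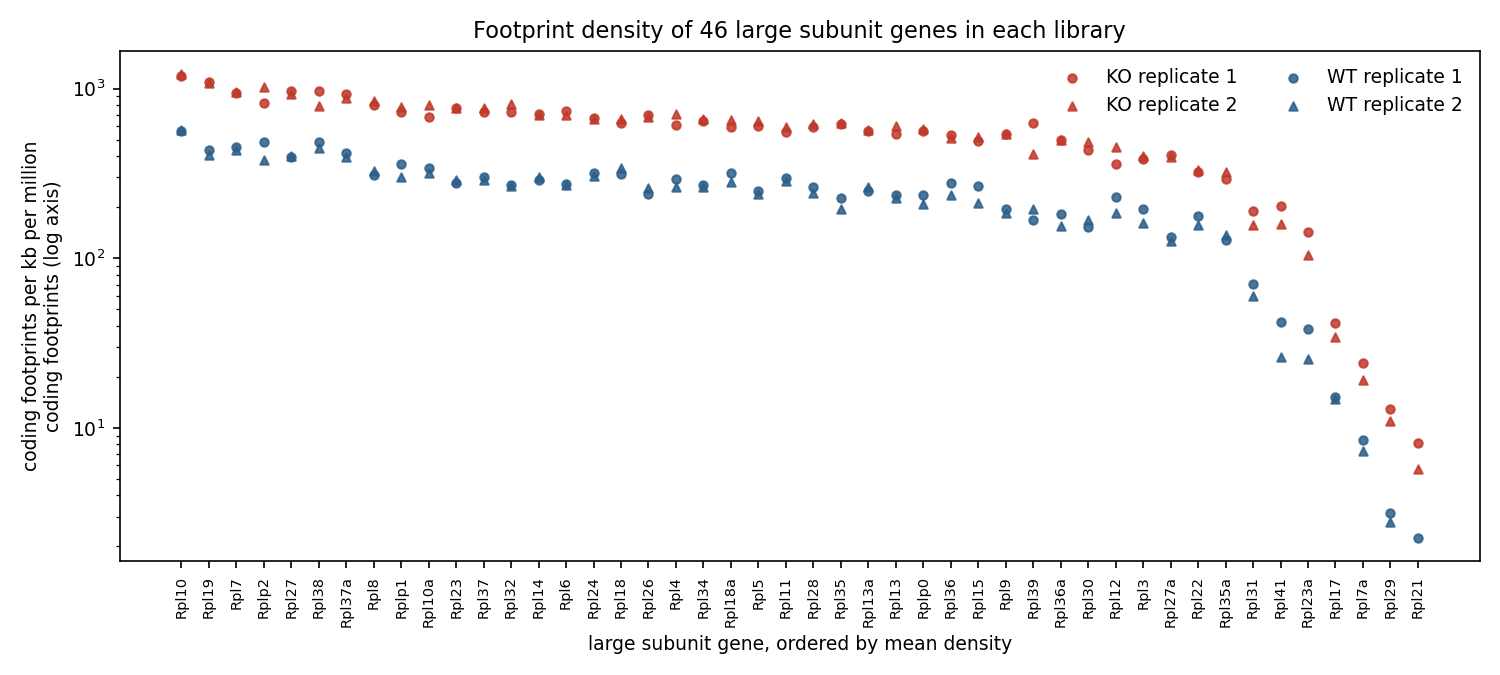
Density of coding footprints (per kb, in a library scaled to 1000000, log axis) of the 46 large subunit genes in each of the 4 libraries, ordered by the mean; circles and triangles are replicates 1 and 2, red KO and blue WT. Most genes form a shallow slope in which red lies above blue, and a tail of low genes at the right ends with Rpl21, which has no point for WT replicate 2.

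Proteins that are made in equal numbers need not give equal footprint density, and the 46 genes differed 165-fold between Rpl10 and Rpl21. Most of that range came from a tail. Of the 46, 40 lay within a 7.43-fold range, and the standard deviation of log2 density among these 40 was 0.529 and 0.544 in KO and 0.583 and 0.596 in WT. The other 6 (Rpl41, Rpl23a, Rpl17, Rpl7a, Rpl29 and Rpl21) fell under 0.25 times the median density of 432; Rpl41 lay just inside that limit of 107.9, at a mean of 107.8, and Rpl31 just outside it, at 119. The 3 lowest were Rpl7a, at 24.1 and 19.1 in KO and 8.43 and 7.35 in WT, Rpl29, at 12.96 and 10.98 in KO and 3.13 and 2.80 in WT, and Rpl21, at 8.16 and 5.75 in KO and 2.24 in WT replicate 1. Even in these low genes each KO library lay above each listed WT library.

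Ribosomal protein genes have left many processed pseudogenes, near-identical copies without introns, in mammalian genomes, and how the authors assigned reads that match several copies is not stated in those sources. Counts of genes with close copies are therefore uncertain. RefSeq names 10 or more pseudogenes after 8 of the 46 genes: 23 after Rpl31, 15 after Rpl21, 14 each after Rpl23a and Rpl7a, 13 after Rpl19, 11 each after Rpl17 and Rpl36, and 10 after Rpl30. The median density of these 8 was 98.7, against 461 for the other 38, and 4 of the 6 low genes were among them. The pattern was not uniform, since Rpl19, with 13 named pseudogenes, had the second highest density and Rpl41, with none, was low. Across the 46 genes, which share the same libraries, Spearman's rho of density with the number of named pseudogenes was -0.38, given as a description. The tabulated coding region of Rpl41, a very short basic peptide, measured 18 nt, and 71 nt of every transcript lie in none of the 3 tabulated regions; Rpl41 had 182 and 130 footprints in those 71 nt in KO and 30 and 24 in WT, against 18 and 13 and 4 and 2 in its coding region.

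**Figure D2:**
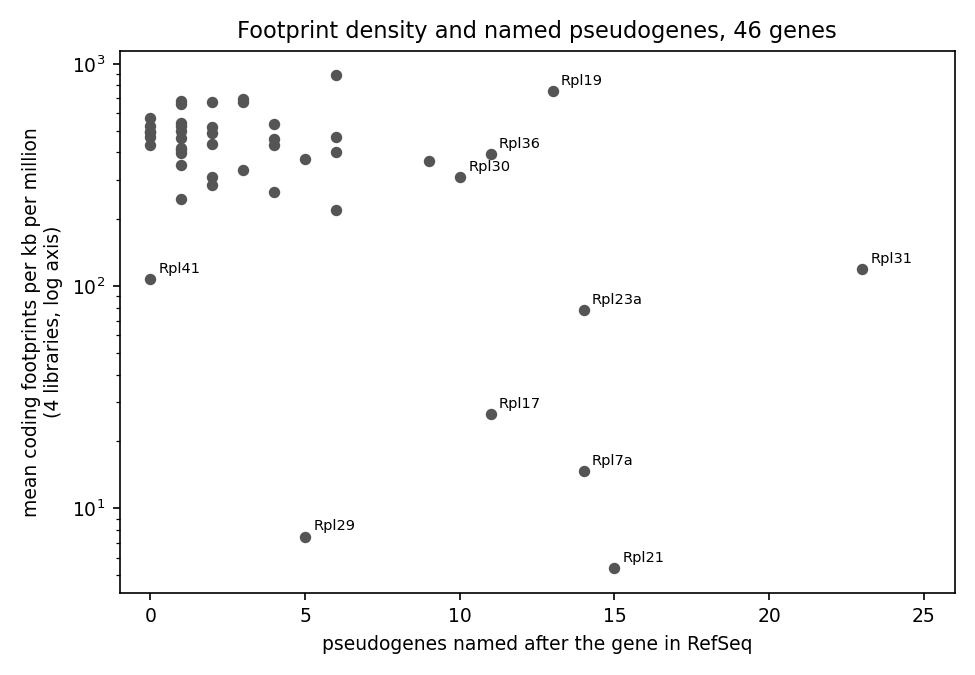
Mean density of coding footprints over the 4 libraries (per kb, in a library scaled to 1000000, log axis) against the number of RefSeq pseudogenes named after the gene, 1 point per large subunit gene. The 4 labelled genes at the lower right (Rpl23a, Rpl17, Rpl7a and Rpl21) combine low density with 11 or more pseudogenes, while Rpl19 is high with 13 and Rpl41 low with 0.

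Coding footprints of large subunit genes were higher in KO, by 2.13-fold (Rpl38) to 5.65-fold (Rpl41) with a median of 2.76-fold (log2 1.46). The change was tested with edgeR's quasi-likelihood test, with Benjamini-Hochberg adjustment over 10953 transcripts, and a gene is called where the adjusted p is below 0.05. Of the 46 genes, 45 were listed in all 4 libraries and tested, and 45 were called higher (adjusted p from 1.13e-05 to 0.00238). Over all tested transcripts 19.9% were called higher and 19.1% lower, and the median log2 change was -0.02. Both KO libraries lay above both WT libraries in 45 of the 45, against 35.4% of all tested transcripts, and 45 of the 45 changed by a log2 of at least 1, against 7.4%. The tested genes include Rpl29 and Rpl41, which reached the minimum of 10 counts in KO only; 43 reached it in every library. DESeq2 called 44 of the genes higher and gave no adjusted p for Rpl41 (log2 2.57, unadjusted p = 0.00678). Scaling by library totals alone, in place of TMM, shifted the median of all transcripts by -0.18 and that of the large subunit genes to 1.29, and turned the split of all calls from 51.1% to 33.2% higher, while 45 of the 45 were still called higher. With library totals a log2 change of at least 1 no longer held for Rpl11, Rpl12, Rpl18, Rpl22 and Rpl38 (0.92 to 0.98), and the values were 0.93 for Rpl38 without KO replicate 1 and 0.998 for Rpl12 without KO replicate 2.

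The change was narrow in range: the middle of the distribution ran from 1.27 to 1.62 (quartiles of log2), and 42 of the 45 lay between 1 and 2. The 38 genes with at least 100 coding footprints in every library ranged from 1.09 to 1.79. Rpl21 was not tested: it had 17 and 11 footprints in KO and 5 in WT replicate 1, and its unlisted count in WT replicate 2 can be at most 4. The log2 change had a Spearman's rho of -0.15 with coding length, -0.35 with mean density, -0.04 with 5′ UTR length and 0.14 with named pseudogenes over the 45 genes, which share libraries, so these are descriptions. Pearson's r over the genes between the change from replicate 1 libraries and that from replicate 2 libraries was 0.72.

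**Figure D3:**
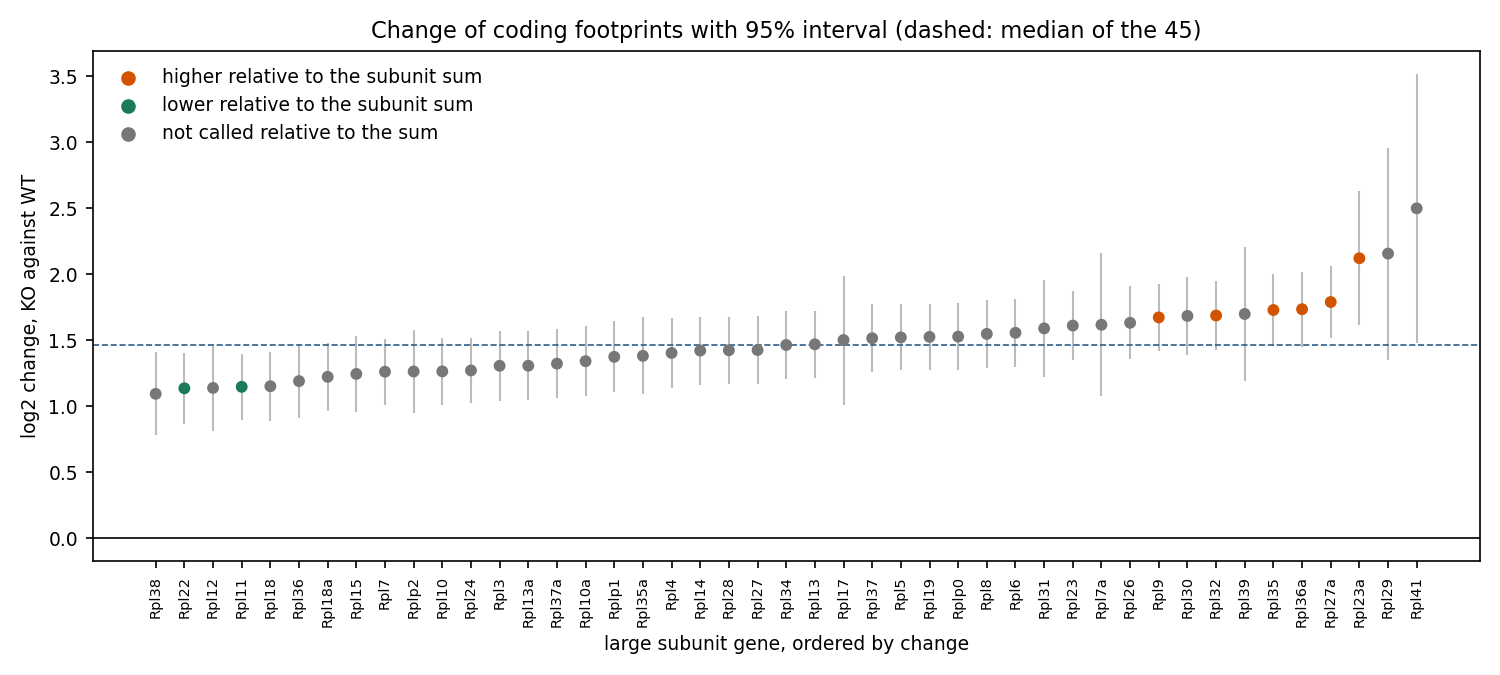
Fitted log2 change of coding footprints, KO against WT, with its 95% interval for the 45 tested large subunit genes in order of size; the dashed line is their median (1.46) and the solid line no change. Every interval lies above 0, and coloured points mark the 6 genes called higher and the 2 called lower relative to the subunit's summed footprints.

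The stalk recruits the GTPases that drive translation, and it is made of Rplp0, which anchors it, Rplp1 and Rplp2, which form its flexible arms, and Rpl12 at its base. Rplp0 had 544 and 546 CPM in KO and 196 and 182 in WT (log2 1.53, SE 0.11). Rplp1 had 227 and 235 CPM in KO and 94.6 and 83.5 in WT (1.37, SE 0.12), and Rplp2 had 259 and 309 against 129 and 107 (1.26, SE 0.14). Rpl12 had 172 and 209.9 CPM in KO and 94.1 and 78.9 in WT (1.14, SE 0.14). The genotypes did not overlap in any of the 4, which were called higher with a median log2 change of 1.32.

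Rpl5 and Rpl11 bind the 5S ribosomal RNA and enter the subunit with it; when ribosome assembly fails, free Rpl5 and Rpl11 are known to bind Mdm2, the main brake on p53. Rpl5 had 545 and 569 CPM in KO and 193 and 195 in WT (log2 1.52, SE 0.11). Rpl11 had 287 and 299 CPM in KO and 132 in each WT library (1.15, SE 0.11). Both genes rose, Rpl11 being among the 5 smallest changes of the subunit.

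Rpl10 and Rpl24 are loaded onto the subunit last, in the cytoplasm, where Rpl10 completes the sites that hold tRNA. Rpl10 had 760.4 and 751 CPM in KO and 304 and 325 in WT (log2 1.26, SE 0.11), and Rpl24 had 304 and 290.1 against 122 and 124 (1.27, SE 0.11). Both lay below the subunit's median change. The proteins lining or ringing the exit tunnel (Rpl4, Rpl17, Rpl19, Rpl23a, Rpl26, Rpl31, Rpl35 and Rpl39) were called higher in 8 of 8, with a median log2 change of 1.61 and a range of 1.40 to 2.12. Among them Rpl19 had 623 and 593 CPM in KO and 213 and 209 in WT (log2 1.53), and Rpl39, a short tunnel protein, had 65.1 and 41.8 against 14.95 and 18.2 (1.70, SE 0.22). Proteins that bridge to the small subunit (Rpl8, Rpl19, Rpl24, Rpl30 and Rpl41) were called higher in 5 of 5, with a median of 1.55. As 45 of the 45 tested large subunit genes were called higher, against 19.9% of all tested transcripts, the counts of both lists follow from that.

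By evolutionary origin, 18 of 18 proteins shared with bacteria and archaea were called higher (median log2 1.51, range 1.14 to 2.12). The list of those absent from bacteria has 26 genes, of which 25 were tested and 25 called higher (median 1.46, range 1.09 to 2.50). The 9 genes whose human counterparts are mutated in Diamond-Blackfan anaemia, an inherited failure of red cell production, were called higher in 9 of 9 (median 1.43, range 1.15 to 1.73). Rplp1 and Rplp2 are in neither list by origin. These counts say nothing particular to a list, since 45 of the 45 tested genes were called higher, against 19.9% of all tested transcripts. No list of the subunit was tested against another. Genes with a C and T run of 8 bases or more anywhere in the window around the annotated start changed by a median log2 of 1.42 (11 genes, 1.09 to 1.79). Those with shorter runs changed by 1.47 (23 genes, 1.14 to 2.50, the highest being Rpl41).

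The 5 largest changes included 3 of the 6 genes of low density. Rpl41 had 3.97 and 3.02 CPM in KO and 0.704 and 0.462 in WT (log2 2.50, SE 0.45), from 18, 13, 4 and 2 footprints. Rpl29, a basic protein also found as a heparin-binding protein, had 5.96 and 4.88 CPM in KO and 1.23 and 1.15 in WT (2.16, SE 0.36), from 27, 21, 7 and 5 footprints. Rpl23a, at the mouth of the exit tunnel where the signal recognition particle docks, had 64.2 and 45.1 CPM in KO and 14.6 and 10.2 in WT (2.12, SE 0.22). The 95% intervals of these 3 genes reach down to 1.48, 1.35 and 1.61. Rpl27a, whose yeast counterpart is changed in cycloheximide-resistant strains, had 170.1 and 161 CPM in KO and 47.8 and 48.0 in WT (1.79, SE 0.12). Rpl36a, at the exit site for tRNA, had 141 and 138 CPM in KO and 44.2 and 39.5 in WT (1.73, SE 0.13).

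At the other end stood Rpl38, Rpl22, Rpl12, Rpl11 and Rpl18. Rpl38, whose loss in mice is known to impair translation of a subset of Hox mRNAs, had 160.4 and 128 CPM in KO and 68.8 and 66.2 in WT (log2 1.09, SE 0.14). Rpl22, dispensable in most tissues but needed by developing T cells, had 138 CPM in each KO library and 65.1 and 60.5 in WT (1.14, SE 0.12). Rpl18, whose human counterpart is mutated in some families with Diamond-Blackfan anaemia, had 348 and 354 CPM in KO and 148 and 168 in WT (1.15, SE 0.12). Even these genes were called higher, with lower 95% limits of 0.78, 0.87 and 0.89.

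Whether single genes departed from the subunit was tested by refitting all transcripts with the summed coding footprints of the 46 genes as library size. A log2 of 0 then means that a gene kept its share of the subunit's footprints. Against this sum 1.64% of all tested transcripts were called higher and 91.5% lower, so the adjustment over all transcripts barely changes a p, and calls near the threshold are weak. With 93.1% of all transcripts called, 6 of the 45 genes were called higher and 2 lower, and the same genes passed at an unadjusted p below 0.05. Rpl27a made up 1.27% and 1.199% of the subunit's footprints in KO and 0.942% and 0.952% in WT (log2 0.38, SE 0.12, adjusted p = 0.0116, edgeR). Its genotypes did not overlap, and its call held in each of 7 alternative settings.

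Rpl23a made up 0.479% and 0.335% in KO and 0.288% and 0.201% in WT (log2 0.72, adjusted p = 0.0133, edgeR). The genotypes did not overlap, but the call was lost without either of 2 libraries: without KO replicate 1 the change was 0.43 (adjusted p = 0.108) and without WT replicate 2 it was 0.50 (adjusted p = 0.0955). Rpl35, a tunnel-exit protein, made up 1.57% and 1.52% in KO and 1.29% and 1.18% in WT (0.32, adjusted p = 0.0259, edgeR). Rpl36a made up 1.05% and 1.02% in KO and 0.870% and 0.783% in WT (0.33, adjusted p = 0.0285, edgeR). Both had separate genotypes, and both calls were lost without KO replicate 1 (adjusted p 0.0784 and 0.0797) and without WT replicate 2 (0.134 and 0.145); that of Rpl35 was also lost without KO replicate 2 (0.0584). Rpl32 made up 2.06% and 2.198% in KO and 1.72% and 1.79% in WT (0.28, adjusted p = 0.0397, edgeR). Rpl9 was also called higher, from 1.87% and 1.86% in WT to 2.27% and 2.21% in KO (0.26, adjusted p = 0.0443, edgeR).

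The 2 genes called lower relative to the sum were Rpl11 and Rpl22. Rpl11 made up 2.14% and 2.22% of the subunit's footprints in KO and 2.61% and 2.62% in WT (log2 -0.26, adjusted p = 0.0450, edgeR). Rpl22 made up 1.03% and 1.02% in KO and 1.28% and 1.199% in WT (log2 -0.27, adjusted p = 0.0488, edgeR). The genotypes were separate in both, and both calls were lost when any 1 of the 4 libraries was left out, as were those of Rpl32 and Rpl9 (adjusted p from 0.0560 to 0.188 over these 4 genes). The log2 changes themselves moved little in these fits of fewer libraries, from -0.29 to -0.23 for Rpl11, -0.32 to -0.22 for Rpl22, 0.23 to 0.32 for Rpl32 and 0.24 to 0.29 for Rpl9; where an arm held 1 library, that library was assumed to vary like those of the other genotype.

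Together the 46 genes took 1.23% and 1.28% of the coding total in KO and 0.546% and 0.517% in WT. Means were 1.26% ± 0.032 (SD, n = 2) and 0.532% ± 0.020 (SD, n = 2), a 2.36-fold difference that was larger than the spread between replicates (two-sided exact permutation p = 0.33, the smallest that 2 against 2 libraries allow). The genes of the 40S, or small, subunit took 0.860% and 0.891% in KO and 0.362% and 0.340% in WT (2.49-fold). All 32 tested small subunit genes were called higher, against 19.9% of all tested transcripts, with a median log2 change of 1.45 and a range of 1.16 to 1.97. Among the largest were Rps2 (25.6 and 16.04 CPM in KO, 4.40 and 6.46 in WT, log2 1.97), at the mRNA entry, and Rps26 (375 and 356 against 102.9 and 89.8, log2 1.92), at the mRNA exit. Large subunit footprints per small subunit footprint were 1.44 in each KO library and 1.51 and 1.52 in WT (1.436 ± 0.0004 against 1.515 ± 0.0072, SD, n = 2 each; exact permutation p = 0.33, the smallest possible). The genotypes did not overlap in this ratio.

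Several large subunit proteins have a relative, encoded by another gene, that can replace them in the ribosome or resembles them. Of 8 such genes 6 were in the table, and 5 were called higher, against 19.9% of all tested transcripts. Rpl22l1, which can take the place of Rpl22, had 109 and 105 CPM in KO and 30.6 and 27.2 in WT (log2 1.88, SE 0.13, adjusted p = 1.29e-05, edgeR). Its coding footprints per Rpl22 footprint were 0.786 and 0.764 in KO and 0.470 and 0.450 in WT, and Rpl22 itself changed by a log2 of 1.14. Rpl22 protein is known to repress Rpl22l1. Rpl36al, a near-copy of Rpl36a, moved the other way against its partner: its ratio to Rpl36a was 1.87 and 1.74 in KO and 2.35 and 2.37 in WT, although its own footprints rose (264 and 239 CPM against 104 and 93.5, log2 1.35).

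Rpl7l1, which resembles Rpl7 and is known from ribosome assembly, rose by a log2 of 0.55 (68.8 and 58.3 CPM in KO, 45.7 and 41.1 in WT, adjusted p = 0.0120, edgeR). Its ratio to Rpl7 was 0.0893 and 0.0773 in KO and 0.144 and 0.129 in WT. These 3 ratios did not overlap between genotypes, and the exact permutation p was 0.33 for each, the smallest possible. Rpl39l, a relative of Rpl39 best known from the testis, had 13 and 11 footprints in KO and 5 and 7 in WT (log2 1.16, adjusted p = 0.0557, edgeR, not called). Its ratio to Rpl39 was 0.0441 and 0.0611 in KO and 0.0588 and 0.0886 in WT, which overlapped (exact permutation p = 0.67). Rsl24d1, an assembly factor that resembles Rpl24, rose from 16.9 and 19.6 CPM in WT to 29.1 and 27.7 in KO (log2 0.64). The shared stretches of a gene and its relative can exchange reads, so these ratios carry the same uncertainty as those of genes with pseudogenes. The transcripts Rpl14-ps1 and Rpl31-ps12 bear pseudogene names and had 1.08, 1.05, 1.12 and 1.10 footprints per footprint of Rpl14 and 1.40, 1.65, 1.5 and 1.2 per footprint of Rpl31, in the order KO replicates 1 and 2 and WT replicates 1 and 2.

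**Figure D4:**
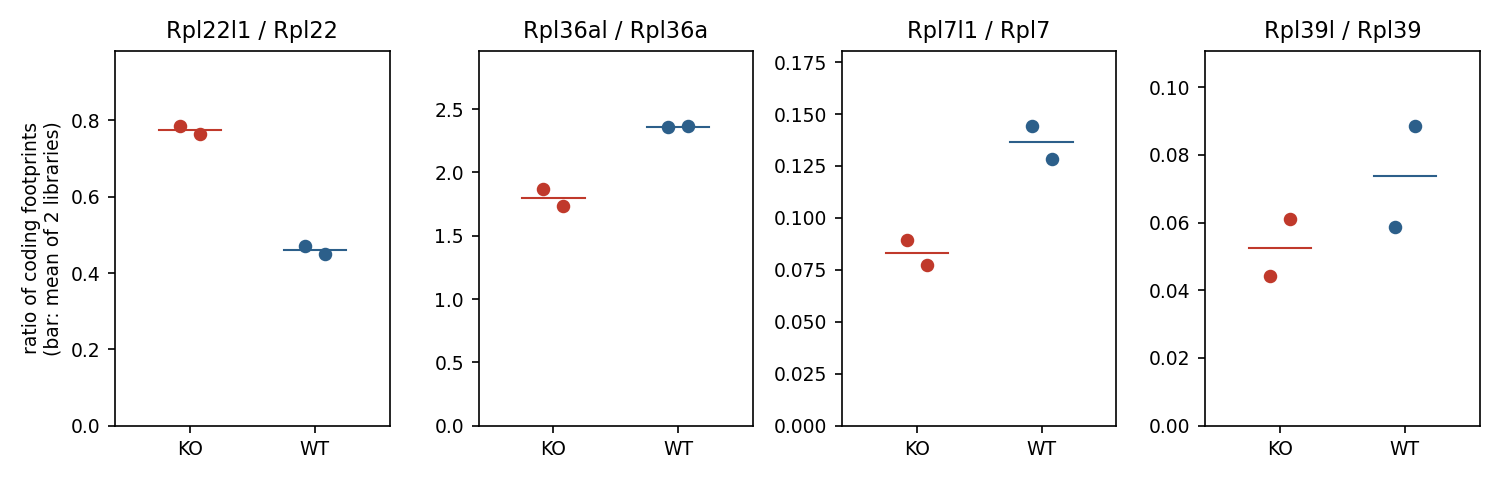
Coding footprints of 4 relatives per coding footprint of their large subunit partner in each library, with the mean of the 2 libraries of a genotype as a bar; red is KO and blue WT, and each panel has its own axis from 0. Rpl22l1 against Rpl22 is higher in KO, Rpl36al against Rpl36a and Rpl7l1 against Rpl7 are lower, and Rpl39l against Rpl39 overlaps.

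Genes that build, share regulation with or regulate the large subunit were read from lists. Of 50 tested factors of 60S assembly, 39 were called higher and 11 did not pass, with a median log2 change of 0.70. Over all tested transcripts 19.9% were called higher. The largest were Gnl3 (63.5 and 65.6 CPM in KO, 21.6 and 27.0 in WT, log2 1.42), a nucleolar GTPase, Nsa2 (58.2 and 53.9 against 21.6 and 21.9, 1.36) and Npm1 (312 and 309.9 against 117 and 133, 1.31), the abundant nucleolar chaperone nucleophosmin. Sbds, which helps free the subunit of its last assembly factor, was among the 11 that did not pass. The list was not tested against the large subunit genes.

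Translation factors and other genes with TOP mRNAs, listed apart from the 2 subunit lists, were called higher in 18 of 18, with a median of 0.96. The share called higher over all tested transcripts was 19.9%. Tpt1, a growth-related calcium-binding protein, had 609 and 752 CPM in KO and 218 and 194 in WT (log2 1.72), Eef1g, a subunit of elongation factor 1, 491 and 511 against 166 and 176 (1.55), and Gnb2l1, which encodes the small subunit's scaffold Rack1, 593 and 724 against 240.5 and 210.0 (1.55). Of 14 tested regulators of TOP mRNAs, 5 were called higher, with a median of 0.31, so little is read from that count beside the share over all transcripts. The largest were Rps6kb2 (21.4 and 23.2 CPM in KO, 14.1 and 13.4 in WT, log2 0.70), an S6 kinase, Myc (58.5 and 77.6 against 42.6 and 42.2, 0.68), which drives transcription of ribosomal protein genes, and Max, its partner (20.5 and 19.1 against 12.8 and 14.3, 0.55). Mtor itself did not pass (94.9 and 93.2 CPM in KO, 84.4 and 81.0 in WT, log2 0.18). Of 19 tested proliferation genes 18 were called higher, with a median of 1.06; Birc5, Ccnb1 and Plk1, all acting in mitosis, changed by a log2 of 1.66, 1.57 and 1.57. Genes of dividing cells thus moved with those of the large subunit, and their part in its change was not tested.

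Ribosomes that start early, fail to leave after the stop codon or slide past it leave footprints in UTRs, the reason to read them in a study of Pelota. The large subunit genes had few: 91 and 118 in the 5′ UTRs in KO and 36 and 31 in WT, over 32 of the 46 genes, while 14 had 0 in every library. As a share of their coding footprints, that was 0.150% and 0.204% in KO and 0.125% and 0.142% in WT. The higher KO values rested in part on 1 gene, since without Rpl29 the shares were 0.120% and 0.176% against 0.111% and 0.133%, which overlapped (exact permutation p = 0.67, against 0.33 with it). All other transcripts had 1.47% and 1.71% in KO and 1.09% and 1.00% in WT. Small subunit genes had 0.494% and 0.479% in KO and 0.330% and 0.404% in WT. Per nt the 5′ UTRs of large subunit genes held 0.729% ± 0.158 (SD, n = 2) of the coding density in KO and 0.560% ± 0.066 (SD, n = 2) in WT, against 14.6% ± 1.55 and 9.48% ± 0.57 in all other transcripts.

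The 5 genes with most 5′ UTR footprints were Rpl29, Rplp1, Rpl32, Rpl5 and Rpl39. Rpl29 had 18 and 16 in KO and 4 and 2 in WT over 103 nt, beside coding counts of 27, 21, 7 and 5, and its ratio of 5′ UTR to coding footprints was not called (log2 -0.17, SE 0.58, adjusted p = 0.930, edgeR, with 0.494% of 1618 transcripts called higher and 0.68% lower). The sign of that ratio's difference depended on the setting: it was 0.48 with one TMM factor per library and 0.088 without WT replicate 1. Rplp1 had 6 and 18 in KO and 3 and 5 in WT, Rpl32 had 8 and 10 in KO and 1 and 0 in WT, and Rpl5 had 7 and 7 in KO and 3 and 0 in WT. Rpl39 had 9 and 6 in KO and 1 in each WT library. The genotypes did not overlap in counts for these 5 genes, but coding footprints were higher in KO too. With a minimum of 5 counts, 7 genes could be tested for the ratio, and edgeR called 0 of them (background 0.332% higher and 0.299% lower of 3009 transcripts) and 1 fell below an unadjusted p of 0.05. That gene was Rplp0, with 5 footprints in each KO library and 0 in each WT library. Rplp0, Rpl32, Rpl5, Rpl39 and Rpl29, 5 of the 7, reached the minimum through the KO libraries alone, as did Rpl29 at 10 counts, so nothing is read from these tests.

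The 3′ UTRs of large subunit genes held 83 and 75 footprints in KO and 37 and 23 in WT. Relative to coding footprints, that was 0.137% and 0.130% in KO, against 0.128% and 0.105% in WT. Most lay in Rpl39 and Rpl41. Rpl39 had 27 and 28 in KO and 7 and 5 in WT, and the fitted log2 difference of its ratio of 3′ UTR to coding footprints was 1.201 (SE 0.47, unadjusted p = 0.0250, adjusted p = 0.0885, edgeR). It was 0.40 without WT replicate 2 (adjusted p = 0.797, edgeR) and 0.67 with one TMM factor per library (adjusted p = 0.355, edgeR). Rpl41 had 20 and 24 in KO and 18 and 12 in WT (ratio log2 -1.22, SE 0.61, adjusted p = 0.164, edgeR), with the small coding counts given above. These were the 2 genes that could be tested and 0 of them were called, against a background of 7.17% higher and 3.59% lower of 223 transcripts; this test was chosen after the counts were seen, and Rpl39 (3′ UTR) and Rpl41 (coding) reached its minimum of 10 through KO alone. Without Rpl39 and Rpl41 the 3′ UTRs held 36 and 23 footprints in KO and 12 and 6 in WT, or shares of 0.0595% and 0.0399% against 0.0417% and 0.0276%, which overlapped (exact permutation p = 0.67). All other transcripts had 0.576% and 0.617% in KO and 0.705% and 0.672% in WT. Small subunit genes had 0.139% and 0.132% in KO and 0.0576% and 0.0974% in WT. Per nt the 3′ UTRs of large subunit genes held 0.250% ± 0.009 (SD, n = 2) of the coding density in KO and 0.228% ± 0.019 (SD, n = 2) in WT. In all other transcripts they held 0.759% ± 0.037 and 0.878% ± 0.034.

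**Figure D5:**
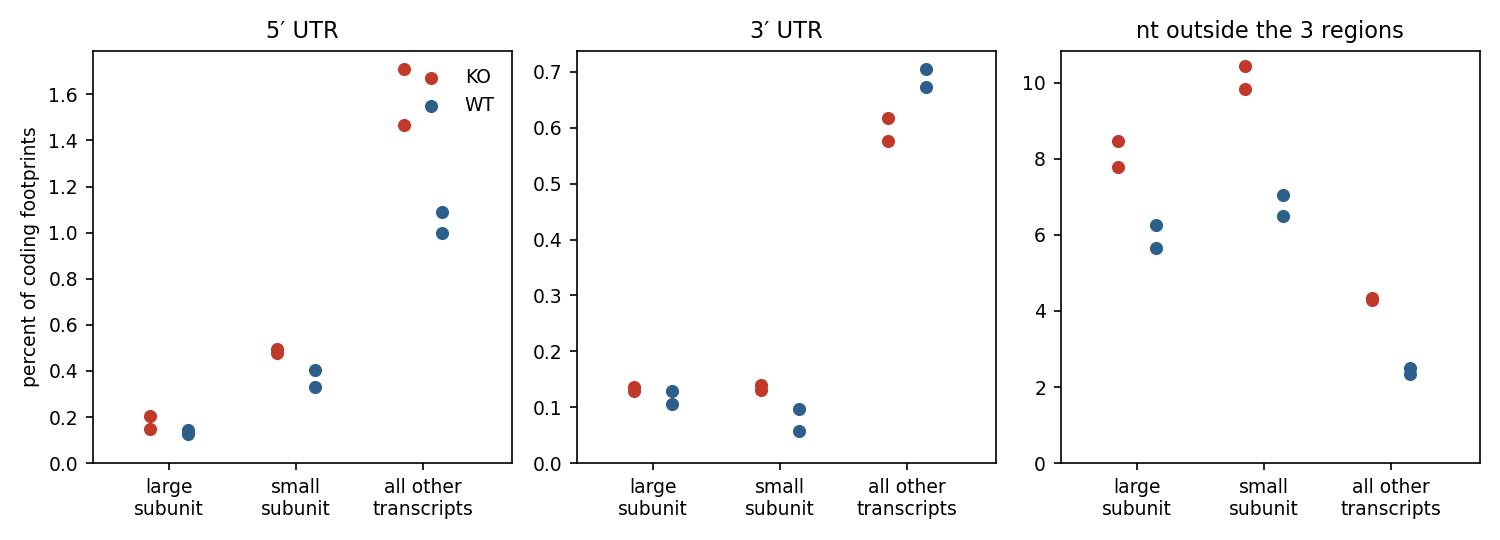
Footprints in the 5′ UTR, in the 3′ UTR and in the nt of each transcript outside the 3 tabulated regions, as a percentage of coding footprints, for large subunit genes, small subunit genes and all other transcripts; each point is 1 library (red KO, blue WT) and each panel has its own axis from 0. The large subunit genes lie far below all other transcripts in both UTR panels and above them in the right panel, where their KO libraries (8.47% and 7.79%) exceed their WT libraries (5.65% and 6.27%). These percentages are not corrected for length. Large subunit genes have shorter UTRs and shorter coding regions (median 418.5 nt against 1245 nt over all transcripts), while the 71 nt of the right panel are the same in all.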

How the data were processed

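The members and gene lists were chosen with earlier results of these data known. The deposited tables hold raw counts of footprints per transcript region, made by the authors, for 13167 mouse transcripts with region lengths in nt, per the file headers. TopHat2 2.0.10, Bowtie2 2.2.6, CASAVA 1.8 and the builds mm9 and hg19 appear in the submitters' processing notes without a role; the treatment of multi-mapping reads is not stated there. The headers announce tables of 28 to 34 nt and of 20 to 22 nt footprints, but the 2 tables are byte-identical, so the length class is unknown. A count is listed only where coding density exceeds 0.01 per nt; values not listed are bounded above by it and are not 0.

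Libraries were grouped by title. Transcripts listed in all 4 libraries and reaching 10 counts in 2 or more (10953 of 11019) were tested with edgeR 4.0.16 in R 4.3.3 (quasi-likelihood test, TMM factors 0.926, 0.957, 1.09 and 1.04, Benjamini-Hochberg adjustment, threshold 0.05); CPM values use the same factors. The biological coefficient of variation was 11.1%. UTR to coding ratios were tested as an interaction of genotype and region. Single values were compared by two-sided exact permutation over libraries (scipy 1.17.1), whose smallest p for 2 against 2 is 0.33. The rule for named genes gave library values for stalk, 5S and late-joining proteins, the 5 largest and 5 smallest changes, up to 5 calls each way relative to the subunit sum, the 3 highest and 3 lowest densities and the 5 genes with most 5′ UTR counts, up to 3 genes of each other list, and relatives; Krt5, Krt15, Rpl9, Rpl17, Rpl31, Sbds, Mtor and the unlisted markers were named after their values were seen. Some genes picked by this rule are not reported here. Alternatives were library totals, upper-quartile scaling, DESeq2 1.42.0, no count filter, unlisted counts as 0, the replicate number as a block and leaving out each library. The test was tested on simulated data with 10921 genes, where it called 8% of genes given a log2 change of 0.5, 79% of genes given 1 and 96% of genes given 2, and 2.96% of its calls fell on genes left unchanged. Only 50, 100 and 50 genes were given these changes, up and down alike. In the real data 19.9% of transcripts were called higher and 19.1% lower, so these rates need not hold there. In a simulated 5′ UTR comparison of 1417 genes, 80.3% of ratios changed by a log2 of 2 were called. The spread between libraries was set there, not fitted to these data. The reads carry no molecular identifiers, so precision from counts covers counting error only.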

Additional observations from a re-analysis of the deposited data

Results flagged for a closer look

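Every transcript had 71 nt that belong to none of the 3 tabulated regions, and the report uses the footprints there only in the plot of regions and in the counts given for Rpl41. In large subunit genes these numbered 5150 and 4507 in KO and 1632 and 1369 in WT, or 8.47% and 7.79% of the coding total in KO and 5.65% and 6.27% of it in WT. Means were 8.13% ± 0.48 (SD, n = 2) and 5.96% ± 0.43 (SD, n = 2), and both KO libraries exceeded both WT libraries (two-sided exact permutation p = 0.33, the smallest possible). What drew attention is a signal above the WT level in counts outside the coding and UTR comparisons. It was not particular to these genes: small subunit genes had 10.4% and 9.84% in KO and 6.49% and 7.05% in WT, and all other transcripts had 4.30% and 4.33% in KO and 2.49% and 2.35% in WT. The files do not describe where in a transcript the 71 nt lie, and the cause was not tested.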

How the results depend on the processing

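Of the large subunit genes that could be tested, the number called higher was 43 to 46 with each library left out, and 45 under library totals, upper-quartile scaling, no count filter, the replicate block and unlisted counts as 0, where Rpl21 joined the test and was not called; DESeq2 called 44. The number called lower was 0 in each of these. The median log2 change moved from 1.46 to 1.29 with library totals, 1.43 with upper-quartile scaling, 1.42 with the relatives included, and 1.42 to 1.48 with 1 library left out; its spread over library pairs was 0.0199. The share on these genes, KO over WT, was 2.60 as a median over genes in place of 2.36. Relative to the subunit sum, 1 to 4 genes were called higher and 0 to 1 lower with 1 library left out; Rpl27a passed in all 4 of these, and the gene called lower was Rpl38 without KO replicate 1 (log2 -0.49), Rpl12 without KO replicate 2 (-0.42) and Rpl18 without WT replicate 1 (-0.35). Replicate numbers did not pair the libraries (correlation of deviations -0.00574 over 10953 genes, with 2 pairs). With the replicate block 45 genes were called higher, and 5 higher and 1 lower (Rpl38) relative to the sum; Rpl9, Rpl11 and Rpl22 had an adjusted p of 0.0567, 0.0565 and 0.0605 there. The cause of these changes was not tested. With either KO library left out, Rpl29 and Rpl41 could not be tested, nor could any UTR ratio of a single gene. A median UTR ratio over genes gave no value, as the WT medians were 0. Depth limits the UTR comparisons and the genes of low density.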
